A study of Mus musculus with 2 samples.

Results

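The peaks described here are the DNase-accessible sites that lie inside introns of very long genes in mouse cerebellum. A member was a peak whose midpoint fell in the body of a protein-coding gene of 100 kb or more, in no annotated exon, and over 1 kb from any protein-coding start. In the GENCODE M21 annotation of mm10, 2492 of 21938 protein-coding genes (11.4%) reach that length. Members numbered 30760 of 140127 peaks (22.0%) in replicate 1 and 26437 of 114404 peaks (23.1%) in replicate 2. Their rule used position and annotation, not height, footprints, sharing or sequence. It does leave out peaks in exons and within 1 kb of protein-coding starts, the latter 22.1% and 24.2% of all peaks. Differences between members and all peaks may thus partly follow from the rule. Intronic peaks of shorter genes leave out the same peaks.

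Both replicates are cerebella of male B6CASTF1/J mice, the first-generation hybrid of C57BL/6J and CAST, taken at an age of 36 days, with no treatment named. They form 1 group of 2. The labels number them as separate biological replicates and as different males, and they are called 2 animals here on that ground, but one donor entry serves both, which leaves the possibility that their spread is mostly technical. Where 2 values are given without a name, replicate 1 stands before replicate 2. With 2 animals an exact two-sided sign-flip test cannot go below p = 0.5, which is the p of every difference below that has the same sign in both animals, unless another p is given. The tissue holds all cerebellar cell types together, so the number of cells with an open site and how open it is in each cannot be told apart. At the promoters of 6 granule cell markers a peak was found in 6 of 6 in both animals, at those of 4 Purkinje cell markers in 3 (Pcp2 had none), at those of 5 forebrain neuron markers in 2 and 1, and at those of 2 liver markers in 0.

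DNase I cuts DNA that is not wrapped tightly in nucleosomes, so a peak marks an open site such as an enhancer, a promoter or an insulator. Within a peak, a protein sitting on DNA shields a few bases from cutting, and that short protected stretch is a footprint. Genes of the nervous system are among the longest in mammals, most of their length is intron, and enhancers of a gene often lie in its own introns. Cerebellar granule cells, by far the most common neurons of this tissue, depend on NEUROD, ZIC and nuclear factor I (NFI) proteins, while CTCF is a widespread DNA-binding protein that anchors chromatin loops.

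The reference sequence of 5 of the 10 highest members found in both animals is shown first, because these sites carry the strongest signal in the class. It is the plus strand of GRCm38, 5′ to 3′, over the span called in replicate 1, and capitals mark bases inside a footprint in both animals. These 5 were picked from the 10 after their values were seen.
Maml3: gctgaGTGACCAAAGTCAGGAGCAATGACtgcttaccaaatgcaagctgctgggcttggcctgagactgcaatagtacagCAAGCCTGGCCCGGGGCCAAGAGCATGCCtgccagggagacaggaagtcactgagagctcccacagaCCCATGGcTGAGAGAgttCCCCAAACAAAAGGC
Smyd3: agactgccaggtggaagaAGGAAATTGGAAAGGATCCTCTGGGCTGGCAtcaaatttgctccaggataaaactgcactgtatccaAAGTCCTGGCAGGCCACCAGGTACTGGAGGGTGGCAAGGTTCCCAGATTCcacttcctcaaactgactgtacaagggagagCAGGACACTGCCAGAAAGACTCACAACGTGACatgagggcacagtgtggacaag
Cacna1a: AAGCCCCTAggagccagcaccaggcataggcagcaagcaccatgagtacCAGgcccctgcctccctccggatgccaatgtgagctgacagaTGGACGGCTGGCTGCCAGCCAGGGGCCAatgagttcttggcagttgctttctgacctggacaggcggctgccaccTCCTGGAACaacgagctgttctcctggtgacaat
Igf1r: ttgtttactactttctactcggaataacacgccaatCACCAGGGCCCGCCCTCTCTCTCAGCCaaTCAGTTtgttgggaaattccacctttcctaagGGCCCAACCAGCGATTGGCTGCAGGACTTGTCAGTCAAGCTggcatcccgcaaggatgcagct
Atp2b2: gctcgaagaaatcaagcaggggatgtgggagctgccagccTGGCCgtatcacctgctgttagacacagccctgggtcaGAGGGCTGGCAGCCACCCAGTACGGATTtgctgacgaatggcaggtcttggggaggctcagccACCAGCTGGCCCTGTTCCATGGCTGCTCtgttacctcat

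The Maml3 site (chr3:52088441-52088620) lies in intron 1 of 4 of a gene for a Notch coactivator, 16.5 kb from its start, and was the highest member of replicate 1 at 39.3, with 19.2 in replicate 2. Heights are the authors' own signal and are comparable only within an animal. The Smyd3 site (chr1:179012341-179012560) lies in intron 10 of 11, 506 kb into a gene for a lysine methyltransferase, with heights of 33.8 and 22.6. Both stood at percentile 99.65 or above among their animal's peaks.

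The Cacna1a site (chr8:84486021-84486220, 30.2 and 18.1) lies in intron 3 of 46 of the gene for the pore of the P/Q-type calcium channel of Purkinje and granule cells. The Igf1r site (chr7:68129101-68129260, 28.2 and 18.7) lies in intron 2 of 20 of the gene for the insulin-like growth factor receptor. The Atp2b2 site (chr6:113860781-113860960, 27.1 and 16.8) lies in intron 3 of 21 of the gene for a plasma membrane calcium pump. The 5 sites lay between 8012 bp (Igf1r) and 102408 bp (Smyd3) from the nearest start in RefSeq, a second annotation. Not all of the 10 were so far from a start: a Prdm2 peak lay 129 bp from a RefSeq start with 29 CpG dinucleotides in its 200-bp window, and a Gm20388 peak lay 4857 bp away with 19.

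Motif letters were also used to pick 3 sites, after values were seen: for each motif, the highest short member found in both animals whose match had its centre in a footprint of both. Capitals mark footprints as above.
Dlgap1: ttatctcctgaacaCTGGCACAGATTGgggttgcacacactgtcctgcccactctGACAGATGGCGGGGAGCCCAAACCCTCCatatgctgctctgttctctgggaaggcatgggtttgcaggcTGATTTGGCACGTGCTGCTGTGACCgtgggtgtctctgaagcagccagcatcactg
Ablim1: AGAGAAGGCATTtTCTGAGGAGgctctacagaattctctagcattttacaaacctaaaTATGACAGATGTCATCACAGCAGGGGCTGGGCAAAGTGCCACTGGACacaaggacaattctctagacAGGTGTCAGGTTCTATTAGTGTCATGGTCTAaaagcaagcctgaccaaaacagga
Tmem266: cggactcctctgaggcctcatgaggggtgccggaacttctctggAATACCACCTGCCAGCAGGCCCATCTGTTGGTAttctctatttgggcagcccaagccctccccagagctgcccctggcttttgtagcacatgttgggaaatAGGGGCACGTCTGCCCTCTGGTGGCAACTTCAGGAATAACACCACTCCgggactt

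The Dlgap1 site (chr17:70489021-70489200) holds the NEUROD-type E-box CAGATGG at bases 58 to 64, counted from the 5′ end of the printed strand, and lies in intron 4 of 13 of a gene for a postsynaptic scaffold protein. Its heights were 25.9 and 16.2. The Ablim1 site (chr19:57084601-57084780, 24.1 and 14.04) holds the ZIC letters CAGCAGG at bases 76 to 82 and lies in intron 6 of 22 of a gene for an actin-binding protein. The Tmem266 site (chr9:55392341-55392540, 19.4 and 13.2), in intron 3 of 10 of a gene for a membrane protein with a voltage-sensing domain, holds a CTCF core at bases 158 to 169, and in a second footprint ZIC letters at bases 57 to 63 and, read on the other strand, the E-box at bases 65 to 71.

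Members were lower than intronic peaks of shorter genes and were spread more thinly, the latter by a margin that differed between animals and settings. Introns of long genes that meet the rule add up to 586 Mb, which is 22.1% of the ungapped genome and 65.0% of all such intron. They held 5.25 and 4.51 members per 100 kb, against 6.04 and 4.69 peaks per 100 kb in introns of genes under 100 kb and 2.96 and 2.35 between genes. The difference from shorter genes averaged -0.49 ± 0.43 per 100 kb (SD, n = 2). When a peak had to lie wholly inside the intron, it was -0.352 in replicate 1 and 0.130 in replicate 2, so the sign in replicate 2 depends on how peaks at an intron's edge are placed. Over 5 kb from protein-coding starts the difference was -0.487 in replicate 1 and -0.0266 in replicate 2. With only the highest peak of each run within 1 kb it was -0.219 and -0.0402. Little of it was thus left in replicate 2.

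A member's median height was 0.672 in replicate 1 and 0.770 in replicate 2. Ranked within all peaks of its animal, the median member stood at percentile 45.7 and 44.4, against 52.4 and 51.8 for intronic peaks of shorter genes and 73.3 and 70.7 within 1 kb of a protein-coding start. Between genes it was 37.1 and 38.6. The difference from shorter genes was -7.05 ± 0.50 percentile points (SD, n = 2; exact sign-flip p = 0.5). Of the highest decile of each animal's peaks, 1127 and 980 were members, or 3.66% and 3.71% of the class, against 5.49% and 4.38% of shorter genes' intronic peaks.

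A footprint was present in 80.8% and 74.2% of members, against 84.0% and 79.1% of intronic peaks of shorter genes. Over all peaks the shares were 78.4% and 72.5%. Members carried 1.86 and 1.76 footprints each on average, fewer than shorter genes' intronic peaks (2.08 and 1.98) and all peaks (2.10 and 2.04). Footprints that touched members had a median width of 11 and 10 bp. The difference from shorter genes was -4.08 ± 1.21 percentage points (SD, n = 2). It turned to 0.903 points when both classes were weighted to the same heights (1.23 and 0.578 in the animals). Among peaks above their animal's median height it was 0.101 in replicate 1 and -0.201 in replicate 2. In the lowest decile by height 23.8% and 16.1% of members had a footprint, against 21.2% and 17.8% of shorter genes' intronic peaks, and in the highest decile 100% of both classes had one in both animals.

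**Figure D1:**
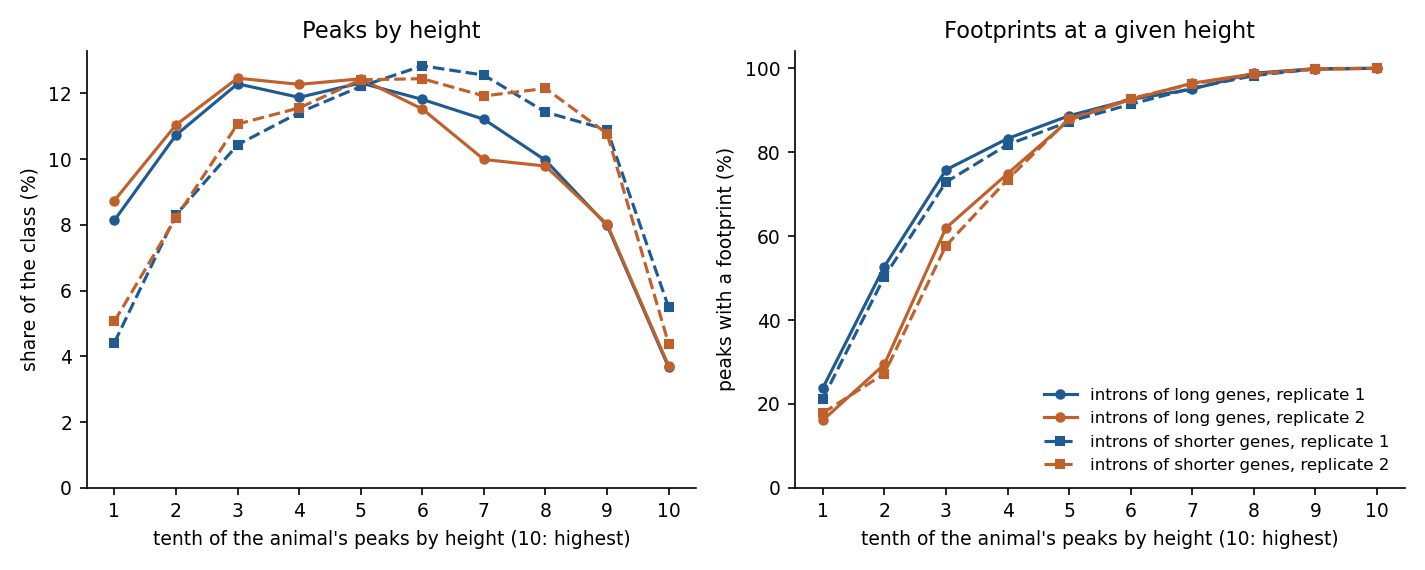
Left, the share of each class (%) in each decile of the animal's peaks by height, from lowest (1) to highest (10); right, the share of peaks in that decile with a footprint (%). Circles with solid lines are introns of long genes, squares with dashed lines introns of shorter genes, blue replicate 1 and orange replicate 2. Members fill the low deciles more and the decile of highest peaks less (3.66% and 3.71%, against 5.49% and 4.38%), while the footprint curves of both classes end at 100%.

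Of the members, 66.3% in replicate 1 and 76.8% in replicate 2 met a peak in the other animal (1 bp of overlap or more), beside 65.8% and 80.4% of all peaks, so the class is shared about as often as peaks in general. Against shorter genes' intronic peaks (63.3% and 81.4%) the members' share was higher in replicate 1 and lower in replicate 2, and the 2 animals gave no common direction (exact sign-flip p = 1). With both classes weighted to the same heights the difference was 8.06 percentage points in replicate 1 and 0.134 in replicate 2. Shared members had a median height percentile of 58.4 and 53.1, against 23.9 and 19.2 for members found in 1 animal. Over 20270 overlapping pairs of members the heights had a Spearman correlation of 0.875 between animals.

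Members differed in sequence from the DNA around them. In 200-bp windows the GC content averaged 51.8% and 50.3%, against 43.4% and 43.1% in windows 5 kb to each side. They held 3.23 and 2.94 CpG dinucleotides per window, against 1.79 and 1.75 in the flanking windows, and 11.2% and 9.13% of their bases were repeat-masked, against 25.1% and 25.01%. The masked share was 12.5% and 10.9% in shorter genes' intronic peaks and 11.6% and 9.36% in all peaks. Low masking was thus not particular to members. Peaks within 1 kb of a protein-coding start were far richer in CpG, at 14.3 per window in both animals. Of the members, 1.89% and 1.83% lay within 1 kb of a start of a non-coding gene. The shares were 2.60% and 2.57% in shorter genes' intronic peaks and 6.91% and 7.001% in all peaks. Within 1 kb of any RefSeq start lay 3.66% and 3.64% of members. Shorter genes' intronic peaks had 6.05% and 6.20% there, and all peaks 25.03% and 27.3%. The rule leaves out peaks within 1 kb of protein-coding starts, so the lower RefSeq share than in all peaks partly follows from it.

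The NEUROD-type E-box was common in members, most of all in the highest ones. The letters CAGATGG, searched on both strands, stood in 16.1% and 18.7% of members' 200-bp windows, against 14.1% and 16.6% of shorter genes' intronic peaks, 11.9% and 13.8% of all peaks and 4.07% and 4.05% of flanking windows. The difference from shorter genes was 2.02 ± 0.05 percentage points (SD, n = 2; exact sign-flip p = 0.5). In replicate 1 it stood in 7.71% of members of the lowest decile by height and in 31.4% of the highest, and in replicate 2 in 12.0% of the lowest and 41.0% of the highest. In the highest decile, 20.3% and 29.1% of shorter genes' intronic peaks had it, and members had the higher share in 10 of 10 deciles in replicate 1 and in 9 of 10 in replicate 2.

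CTCF core matches ran the other way. They stood in 3.79% and 4.38% of members, against 6.06% and 7.49% of shorter genes' intronic peaks, 4.30% and 5.16% of all peaks and 0.0565% and 0.0522% of flanking windows. The difference from shorter genes was -2.69 ± 0.59 percentage points (SD, n = 2; exact sign-flip p = 0.5), and members had the lower share in 10 of 10 height deciles in both animals. ZIC letters stood in 16.0% and 15.8% of members, against 16.4% and 16.6% of shorter genes' intronic peaks, 14.3% and 14.03% of all peaks and 4.88% and 4.64% of flanking windows, and members exceeded shorter genes' intronic peaks in 5 of 10 deciles in either animal. Promoter-type GGGCGG letters stood in 6.16% and 4.92% of members, against 10.1% and 8.65% of shorter genes' intronic peaks and 17.2% and 16.7% of all peaks. Members hold more GC than flanking windows and less than shorter genes' intronic peaks in every height decile, and the part of base composition in these shares was not tested.

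**Figure D2:**
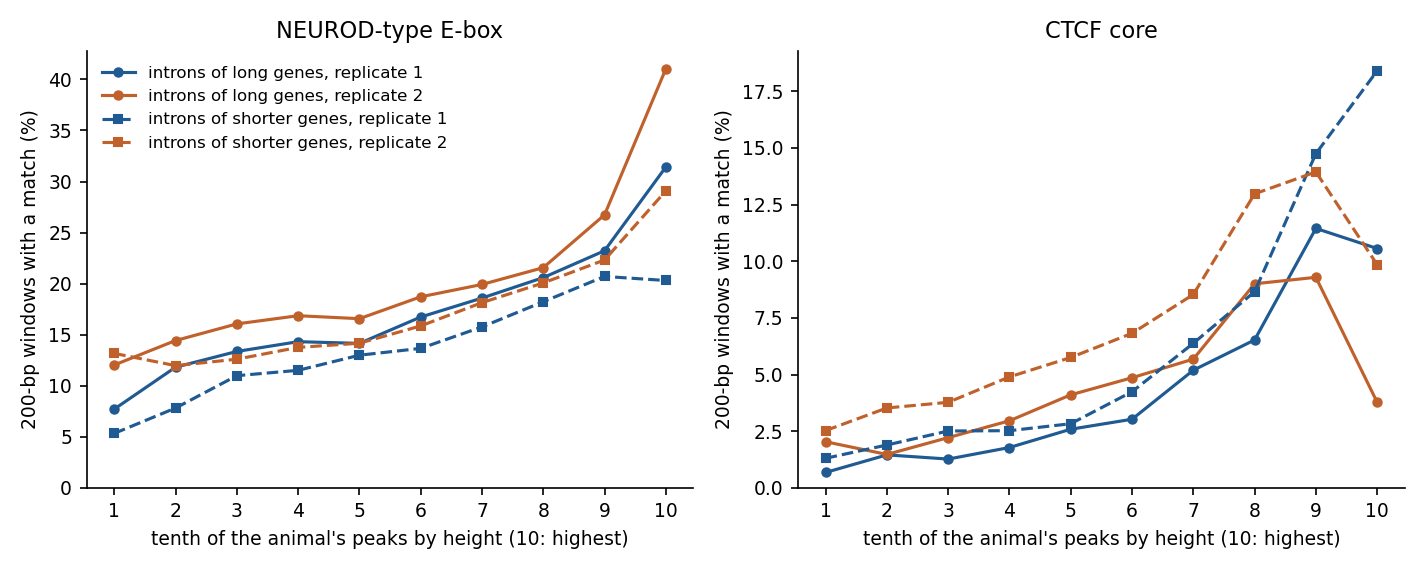
Share of 200-bp windows with a match (%), by decile of the animal's peaks by height, for the NEUROD-type E-box on the left and the CTCF core on the right. Circles with solid lines are introns of long genes, squares with dashed lines introns of shorter genes, blue replicate 1 and orange replicate 2. The E-box share of members ends at 31.4% and 41.0% in the highest decile, while the CTCF share of members lies below that of shorter genes in every decile.

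Footprints sat on some of these letters far more than on the same letters read backwards. Forward and backward matches were not matched for peak height. The share of member bases in a footprint rose from 2.14% and 1.43% in the lowest height decile to 45.5% and 34.1% in the highest. How much of the excess goes with height was not tested. Of 4967 and 5198 CAGATGG matches inside members, 40.8% and 41.5% had their centre base in a footprint, against 11.4% and 8.39% of 343 and 298 backward matches. Of ZIC matches 31.9% and 27.4% were in a footprint, against 14.9% and 12.0% of backward matches. In intronic peaks of shorter genes the forward shares were 40.5% and 40.9% for CAGATGG and 35.4% and 31.9% for ZIC. Such shares are thus not particular to members. CTCF core matches were in a footprint in 1036 of 1157 and 927 of 1142 cases, and the full NFI site, present in 55 and 46 members, in 35 of 49 and 27 of 43 cases, with at most 1 backward match of either to compare. AP-1 letters (TGANTCA) showed no such excess, with 8.09% and 7.39% against 11.1% and 8.88% backward, nor did ROR letters (TAGGTCA), with 8.94% and 8.32% against 14.4% and 15.2%. Full CRE letters (TGACGTCA), bound by CREB proteins, were in a footprint in 42.0% and 49.4% of 88 and 87 matches, against 14.6% and 13.9% of backward matches. In shorter genes' intronic peaks the CRE shares were 48.3% and 60%. GGGCGG letters in members showed little excess, with 34.8% and 25.1% against 32.5% and 23.1% backward.

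The other motifs searched were rarer or varied less. The E-box CAGCTG stood in 17.4% and 15.5% of members, against 8.52% and 8.28% of flanking windows, and SOX letters (ACAATGG) in 2.22% and 2.50%, below the 3.26% and 3.13% of flanking windows. RFX letters (GTTGCCATG) stood in 0.540% and 0.567% of members and in 0.520% and 0.548% of all peaks. MEF2 (CTAAAAATA), CRE, POU (ATGCAAAT) and ETS (CCGGAAGT) letters each stood in under 1% of members in both animals. CRE letters stood in 0.302% and 0.340% of members, against 0.298% and 0.391% of shorter genes' intronic peaks and 0.664% and 0.782% of all peaks. ETS letters stood in 0.192% and 0.163% of members, against 0.199% and 0.229% of shorter genes' intronic peaks and 0.976% and 1.13% of all peaks. Low shares of both were thus not particular to members. MEF2 letters stood in 0.442% and 0.670% of members and POU letters in 0.666% and 0.787%.

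Members crowded close behind the gene start and were spread far more evenly beyond it. Between 1 and 5 kb from the gene's start there were 14.8 and 13.3 members per 100 kb, against 5.46 and 4.24 between 5 and 10 kb. Between 5 and 200 kb the density stayed between 5.44 and 5.57 in replicate 1 and between 4.23 and 4.88 in replicate 2, and beyond 400 kb it was 4.15 and 3.58. Each gene was also cut into deciles of position from its start to its end. The first decile had 6.40 and 5.31 members per 100 kb. The others had between 4.91 and 5.41 in replicate 1 and between 4.30 and 4.52 in replicate 2. The members 1 to 5 kb from the start stood at a median height percentile of 44.4 and 41.8, and 75.3% and 64.7% of them had a footprint.

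By position along each long gene, the first quintile exceeded the last by 0.449 ± 0.106 members per 100 kb (SD, n = 2; exact sign-flip p = 0.5). The first held 5.803 and 4.87 and the last 5.28 and 4.495. Without the 5 kb around protein-coding starts the sign turned, to -0.143 and -0.290, and with only the highest peak of each run within 1 kb the values were 0.00337 and -0.113. The first intron held 6.28 and 5.27 members per 100 kb, against 4.98 and 4.31 in later introns, a difference of 1.13 ± 0.24 (SD, n = 2; exact sign-flip p = 0.5). Without the 5 kb around starts that difference was 0.794 and 0.449.

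**Figure D3:**
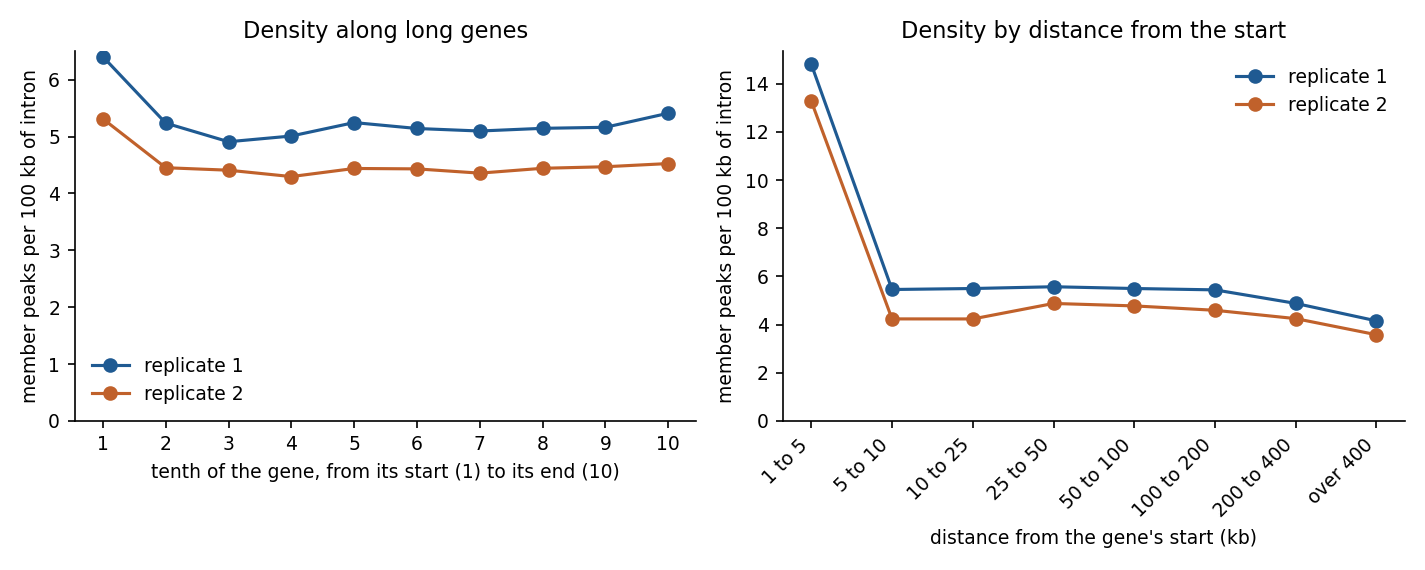
Member peaks per 100 kb of intron by decile of the gene from its start on the left and by distance from its start in kb on the right. Blue is replicate 1 and orange replicate 2; points are pooled over long genes. The first class after the start holds 14.8 and 13.3 members per 100 kb, and every other distance class between 3.58 and 5.57.

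First and later introns were not in the same order at every distance from the start. Between 10 and 25 kb the first intron had 6.09 and 4.61 members per 100 kb, against 4.34 and 3.58 in later introns. Between 100 and 200 kb it had 4.94 and 4.18, against 5.57 and 4.70. Beyond 400 kb, where 40 first introns reach, it had 7.21 and 5.42, against 3.85 and 3.40. Without genes that contain 5 or more other genes, 36 first introns were left there, with 4.503 and 4.16, against 3.73 and 3.32 in later introns.

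Pooled over genes, longer genes held sparser and lower members. Genes of 100 to 200 kb had 6.01 and 5.02 members per 100 kb, those of 200 to 400 kb 5.76 and 4.98, those of 400 to 800 kb 4.77 and 4.18, and the 99 genes of 800 kb or more 3.93 and 3.37. The median height percentile of members went the same way, with 49.4 and 47.5 in the first of these classes and 37.5 and 39.7 in the last. Over all 2492 genes length and density had a Spearman correlation of -0.056, a description across genes. The median gene of 100 to 200 kb had 4.41 and 4.03 members per 100 kb, and the median gene of 800 kb or more 2.98 and 2.75.

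Almost every long gene had at least 1 member. Of the 2492 genes, 69 and 114 had none and 40 had none in either animal. The median gene held 8 and 7 members, or 4.32 and 3.96 per 100 kb, and the middle 80% of genes ran between 1.09 and 12.1 per 100 kb in replicate 1 and between 0.891 and 10.3 in replicate 2. The 250 genes with the most members held 37.5% and 37.0% of them, a member in overlapping long genes counting in each. Counts per gene had a Pearson correlation of 0.961 between animals, and densities a Spearman correlation of 0.904, both across genes of 2 animals and given as a description. Replicate 1 had more members in 1441 genes, replicate 2 in 616, and 435 had equal numbers.

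A peak at the gene's own promoter went with more intronic peaks. A promoter peak was called in 2225 and 2151 long genes (89.3% and 86.3%), against 63.9% and 60.3% of genes under 100 kb. A peak within 1 kb of any protein-coding start of the gene counted. Genes with more annotated starts thus had more chances, and the number of starts was not matched. Long genes with one had 5.47 and 4.78 members per 100 kb, against 2.96 and 2.39 in the 267 and 341 long genes without one. Long genes on the X chromosome had 2.29 and 2.06 members per 100 kb, against 5.401 and 4.64 on the autosomes. Lower density there was not particular to long genes. Without X and Y the density in introns of shorter genes also rose, from 6.04 and 4.69 to 6.20 and 4.81. A male carries 1 copy of the X, and the part of copy number was not tested.

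Gm20388 had the most members, 536 and 349, but it is a gene model of 4435 kb that contains 71 other protein-coding genes. Fgfr2, which the annotation stretches to 2961 kb around 29 other genes, had 214 and 173. Rbfox1, a neuronal splicing regulator, had 125 and 107 members over 1526 kb, or 8.28 and 7.09 per 100 kb. Rbfox3, a related splicing regulator of 422 kb, had 147 and 68. Ntm, which encodes a cell adhesion molecule of neurons, had 110 and 94, and Camta1, a calmodulin-binding transcription activator, 117 and 76. Nav2, a regulator of neurite outgrowth, had 98 and 83, and Lsamp, an adhesion molecule of the limbic system, 90 and 90. Macrod2, which removes ADP-ribose from proteins, had 88 and 81, and Pde4d, a cyclic AMP phosphodiesterase, 84 and 83.

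Members were not spread alike in these genes, whose length was cut into 5 quintiles from the start. In Lsamp the last quintile held 36 and 35 of the 90 members, and in Rbfox1 quintile 4 held 36 of 125 and 33 of 107. In Pde4d quintiles 3 and 4 held 24 and 27 of 84 members in replicate 1 and 24 and 26 of 83 in replicate 2. Lsamp and Macrod2 members were mostly low: 31.1% and 32.2% of those of Lsamp and 33.0% and 32.1% of those of Macrod2 stood above the median height of their animal's peaks. Of Nav2 members 61.2% and 54.2% did.

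**Figure D4:**
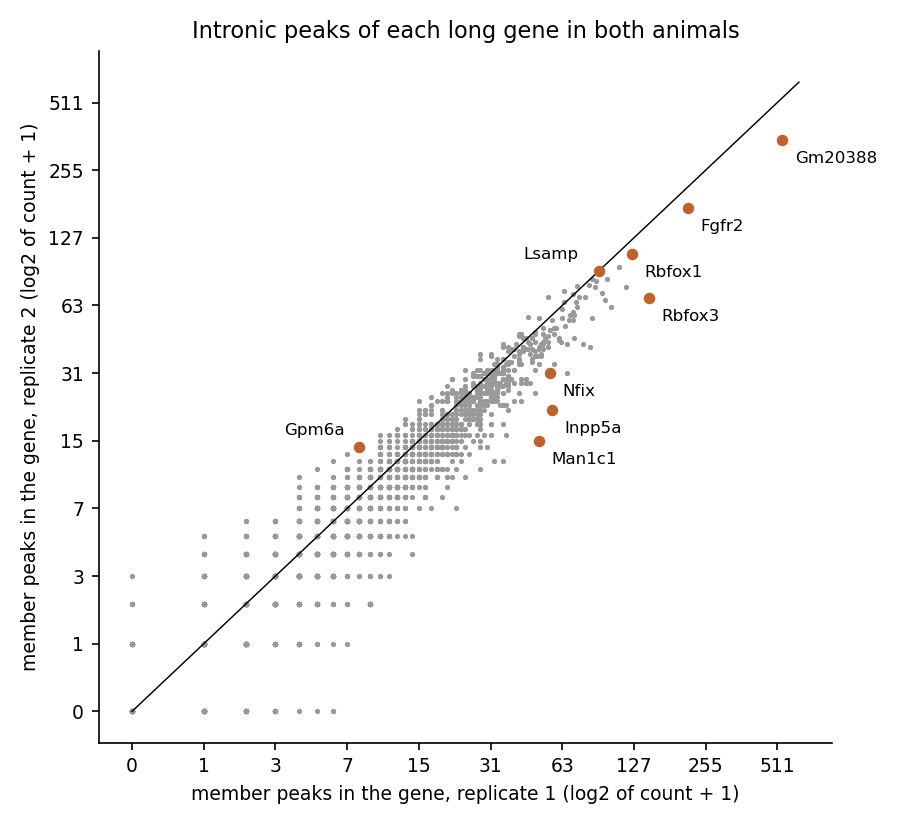
Member peaks of each of the 2492 long genes in replicate 1 (x axis) and replicate 2 (y axis), both as log2 of the count plus 1 with ticks at the counts, and the line of equal counts. Orange points are named genes. Most genes lie along the line or a little below it, and Rbfox3 (147 and 68), Man1c1 (50 and 15) and Inpp5a (57 and 21) lie far below it.

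By density the leading long gene was Nfix, an NFI transcription factor of maturing granule cells, with 56 and 31 members in 84.7 kb of intron, or 66.1 and 36.6 per 100 kb. Of these, 25 overlapped between animals. Rbfox3, which encodes the neuronal nuclear antigen NeuN, had 36.1 and 16.7 per 100 kb. Fam53b had 27.8 and 24.3, and 83.3% and 85.7% of its members stood above the median height of all peaks. Tspan5 and Tspan9, both for tetraspanin membrane proteins, had 32.1 and 16.7, and 28.5 and 19.0, per 100 kb. A density of 20 or more per 100 kb was found in 64 genes in replicate 1 and in 5 in replicate 2.

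Several of these genes were far denser in replicate 1. Man1c1, for a Golgi mannosidase, had 50 and 15 members, and all 15 of replicate 2 overlapped a peak of replicate 1. Inpp5a, for an inositol phosphate phosphatase of Purkinje cells, had 57 and 21, Mtus1 35 and 12, Fnbp1 32 and 12, and Cacna2d4 22 and 7. Of 1078 genes with at least 10 members in replicate 1, 35 had over 2 times as many there as in replicate 2, and of 945 with at least 10 in replicate 2, 2 had over 2 times as many as in replicate 1. Gpm6a, for a neuronal membrane glycoprotein, was among the genes denser in replicate 2, with 8 and 14 members, as were Fndc3b with 15 and 23 and Usp29 with 7 and 13.

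In Rbfox3 the difference lay mostly in the first quintile of the gene. That quintile held 83 members in replicate 1 and 16 in replicate 2, and the other quintiles between 14 and 18 in replicate 1 and between 10 and 16 in replicate 2. In replicate 1, 30 peaks followed each other at under 1 kb over 13.9 kb, with a median height of 0.566 and a highest of 16.9, and covered 61.9% of that stretch. In replicate 2 the same stretch held 2 peaks, of heights 6.62 and 15.1. A second stretch of 10.96 kb held 23 peaks in replicate 1, the highest at 27.1, and 1 in replicate 2, at 16.2.

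The reverse also occurred, on a smaller scale. In Apba2, for a synaptic adaptor protein, replicate 2 had a run of 14 peaks over 6.23 kb where replicate 1 had 4. Over all members, 302 (0.982%) in replicate 1 and 73 (0.276%) in replicate 2 stood in runs of 10 or more peaks, each within 1 kb of the next, beside 1.72% and 0.564% of all peaks. Those of replicate 1 had a median height percentile of 21.4 and 17.5% of them were shared, against 43.4 and 54.8% in replicate 2. No other peak lay within 1 kb of 65.9% and 69.3% of members, beside 53.7% and 57.3% of all peaks. Genes with such runs are given here with both animals' values, and the cause of the difference was not tested.

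Among long genes with no member in either animal were Sema3c, a secreted axon guidance cue, Tek, an endothelial receptor kinase, Hnf4g, a nuclear receptor of gut and kidney, and Fndc3a. By the length of their intron Gm3383, 1700113H08Rik, Fndc3a, Gm3005 and Obox1 led this group, with 151 to 182 kb of intron. Of these, 1700113H08Rik and Fndc3a had a promoter peak in both animals, as did Sema3c. Tek and Hnf4g had none.

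The 14 gene lists were chosen with earlier results of these data known, so their counts are a description. Each list is described by how many of its long genes lay above, and how many below, the median of all long genes in both animals, beside 43.7% above and 43.7% below over all 2492. Some genes stand in more than 1 list. Of 21 long genes in a list for granule cells, 16 (76.2%) lay above and 2 below, with a median of 7.37 and 7.56 members per 100 kb, beside 4.32 and 3.96 over all long genes. Nfix, Rbfox3, Chn2 (19.1 and 11.6, a Rac regulator), Nfib (14.4 and 13.7, a further NFI factor), Tiam1 (13.98 and 13.4, a Rac activator) and Nfia (10.6 and 9.68) were among the densest. Fstl5, with 2.42 and 1.94, and Vav3, with 3.27 and 2.97, were below the median.

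In a list for Purkinje cells 15 of 22 long genes lay above and 7 below, with a median of 6.53 and 5.35 per 100 kb. Among the densest, Ank1, for an ankyrin of the membrane skeleton, had 26.8 and 16.3, Cacna1a 24.4 and 14.3, Atp2b2 17.3 and 14.04, Plcb4, a phospholipase downstream of the glutamate receptor of climbing-fibre and parallel-fibre synapses, 10.9 and 11.5, and Rora, the nuclear receptor that Purkinje cells need to mature, 10.3 and 9.60. By the mean of both animals Prkg1, with 1.27 and 1.27, and Foxp2, with 1.54 and 1.35, were the lowest, while in replicate 2 alone Pde5a was lower, with 2.53 in replicate 1 and 0.844 in replicate 2.

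Of 34 long genes for voltage-gated and calcium channels, 19 lay above and 10 below, with a median of 5.47 and 5.26 per 100 kb; Cacna1c, an L-type calcium channel, had 68 and 57 members, and Dpp6, an auxiliary subunit of potassium channels, 93 and 72. The potassium channel genes Kcnc2 and Kcnt2 were the sparsest by the mean of both animals, Kcnc2 with 1 member in either animal and Kcnt2 with 2. Of 25 long genes for glutamate and GABA receptors, 8 lay above and 15 below, with a median of 3.05 and 3.01; Gabbr2, a metabotropic GABA receptor subunit, had 15.6 and 12.8, Grin2a, the NMDA receptor subunit of mature neurons, 9.03 and 8.30, and Grm7, a presynaptic glutamate receptor, 1.31 and 0.656.

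Large adhesion and guidance genes ranged widely. Of 52 long genes for neuronal adhesion and synapse organisers 19 lay above and 26 below, with a median of 4.07 and 3.75. Ntm (11.5 and 9.85) and Nrxn3, a presynaptic neurexin, with 5.17 and 4.92, lay above it, while Cdh12 had 0.890 and 0.445 and Il1rapl2 0.792 and 0.554. Of 28 long axon guidance genes 12 lay above and 15 below. Slit3, a secreted repellent, had 67 and 54 members and Ephb1, an ephrin receptor, 48 and 43, against 6 and 3 for Epha5. Of 18 genes at fragile sites, which break when replication is slowed, 4 lay above and 12 below, and Dmd, the dystrophin gene on the X chromosome, had 28 and 27 members over 2257 kb. The lists were not matched for gene length. Median length was 1526 kb in the fragile site list and 936 kb in the adhesion list, against 168 kb over all long genes. The fragile site median was 3.18 and 2.93 per 100 kb, beside 2.98 and 2.75 for the median long gene of 800 kb or more.

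Among 54 long genes for transcription regulators 25 lay above and 24 below, with a median of 4.33 and 4.25. Camta1 (13.1 and 8.52), Rora and Auts2 (6.26 and 7.14) had the most members, with 64 and 73 in Auts2, and Meis2, with 0.526 and 1.05, and Zfhx4, with 1.68 and 1.12, were the sparsest by the mean of both animals. In a list of 32 large genes used in most tissues, 13 lay above and 17 below. Trappc9, for a subunit of a vesicle-tethering complex, had 66 and 31 members and Huwe1, for a ubiquitin ligase, 0 and 1.

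Lists for glia, vessels and other tissues had lower medians than the granule and Purkinje cell lists, as did every other list. Of 18 long genes for astrocytes and Bergmann glia 6 lay above and 11 below, with a median of 3.41 and 3.07. Ntrk2, the receptor of brain-derived neurotrophic factor, had 12.4 and 11.7, and Gpc5, a cell-surface proteoglycan, 1.19 and 0.491. Of 20 for the oligodendrocyte lineage 8 lay above and 10 below, of 20 for microglia and lymphoid cells 6 above and 11 below, and of 14 for endothelial and mural cells 5 above and 6 below. In that order their medians were 4.05 and 3.96, 3.60 and 3.32, and 4.91 and 3.13. The list for glutamate and GABA receptors, at 3.05 and 3.01, lay below these and the astrocyte list. Pde4b, with 44 and 45 members, and Prkcb, a kinase also present in neurons, with 37 and 30, led the oligodendrocyte and the microglia and lymphoid lists. Of 38 genes of muscle, epithelia and secretory organs 6 (15.8%) lay above and 24 (63.2%) below, with a median of 2.55 and 2.64.

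**Figure D5:**
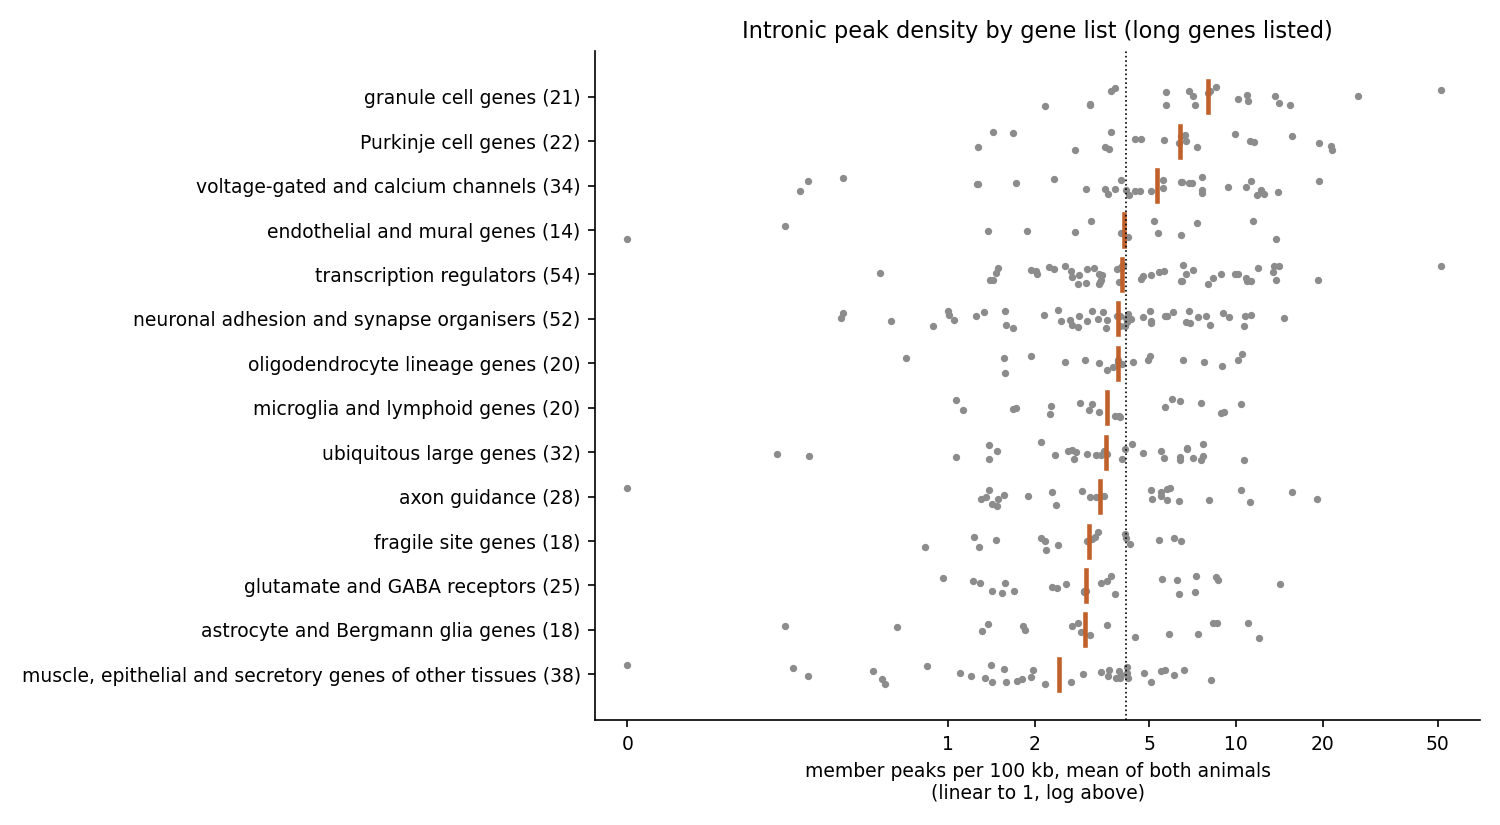
Member peaks per 100 kb of intron, mean of both animals, for each long gene of the 14 lists (grey points; the axis is linear to 1 and logarithmic above), with the list's median (orange bar) and the median of all 2492 long genes (dotted line, 4.15). Numbers in brackets are long genes per list. The granule cell list has the highest median (8.00) and the list for other tissues the lowest (2.43).

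Members of the lists also differed in height and in E-box letters. The median height percentile was 51.0 and 52.4 in granule cell genes and 48.6 and 47.9 in Purkinje cell genes, against 28.4 and 27.5 in the genes of other tissues and 27.4 and 32.5 in the fragile site genes. A footprint was present in 82.4% and 81.7% of the 802 and 662 members in granule cell genes, against 72.4% and 60.5% of the 279 and 258 in genes of other tissues. The E-box CAGATGG stood in 18.3% and 21.5% of members in adhesion and synapse genes and in 14.8% and 17.1% in granule cell genes, beside 16.1% and 18.7% of all members. It stood in 10.4% and 13.6% of the 173 and 132 members in endothelial and mural genes. CTCF core matches stood in 2.00% and 2.87% of members in granule cell genes and in 7.08% and 6.88% of those in microglia and lymphoid genes.

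Some members touched unusually many footprints, and these peaks were wide beside a median member width of 160 and 180 bp. In replicate 1 an 800-bp peak in Hdac9, a histone deacetylase gene, touched 12 footprints, and it lay 46 bp from a RefSeq start. In replicate 2 a peak of 560 bp in Naaladl2 touched 12, also near a RefSeq start, 128 bp away, and its counterpart in replicate 1 touched 10. A Mef2c peak of 560 bp touched 11 in replicate 1 and lay 5077 bp from any RefSeq start. In replicate 2 a peak of 440 bp in Foxn3, a forkhead repressor gene, touched 11, and one in Lpp, for a focal adhesion protein, touched 10. The Foxn3 and Lpp peaks lay 52953 and 35670 bp from any RefSeq start. In replicate 1 footprints covered 15.4% of the Hdac9 peak and 21.6% of the Mef2c peak, against 15.7% of all member bases. In replicate 2 they covered 23.6% of the Naaladl2, 31.1% of the Foxn3 and 31.4% of the Lpp peak, against 12.6%. How far such counts go with peak width was not tested.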

How the data were processed

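DNase-seq was measured in 2 cerebellum samples of 1 group. Per the labels the coordinates are on mm10; which aligner and callers made the lists was not given in the sources used here. The authors deposited, for each animal, a larger and a smaller peak list with a signal per peak (its height) and a list of footprints, both called per animal; the depth behind them is unknown. The p-value column of the deposited footprint lists holds 1 constant entry per the files themselves, as the authors left it, and only positions were used. The larger list was used. Introns, starts and gene lengths came from GENCODE M21, reference sequence and further starts from RefSeq GRCm38.p6. Members were assigned by midpoint; a member inside overlapping long genes counted in each gene (1.56% and 1.43% of members). Introns were numbered in the longest protein-coding transcript. Overlaps needed 1 bp. Motifs were searched as fixed letters (with wild cards in AP-1, NFI and CTCF) on both strands in 200 bp around each midpoint. Genes were named from the 10 with most members, the 10 densest with 50 kb or more of intron, the 5 with most intron and no member, the 5 that differed most between animals either way, the 10 highest shared members, the 5 peaks with most footprints per animal, and per list the 3 genes with most members and the 2 least dense; others were chosen after their values were seen. Some genes that this rule names are not reported here. The members and the 14 gene lists were chosen with earlier results of these data known. Differences over 2 animals were tested with an exact sign-flip test. Placement and counting were tested on simulated peaks. Python 3.11.15, numpy 2.4.6 and pandas 2.3.3 were used.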

Additional observations from a re-analysis of the deposited data

How the results depend on the processing

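Lower density and height in long than in shorter genes and the excess of first introns kept their direction, as a mean of both animals, under all 14, 14 and 15 alternatives run, between -0.813 and -0.111, between -7.55 and -2.91 and between 0.545 and 1.31. Alternatives that leave out genes containing 5 or more others, or keep the highest peak of each run within 1 kb, were chosen after seeing the data. The first-quintile excess turned to -0.216 over 5 kb from starts and to -0.0550 with 1 peak per run. The footprint difference turned to 0.903 at equal heights and the sharing difference to 4.10 at equal heights and to 2.95 without replicate 2. In the smaller lists the footprint difference was 1.07 in replicate 1 and -3.31 in replicate 2. Above the median height it was 0.101 and -0.201, so the animals had no common sign in either setting. At equal numbers of peaks it was -0.160 in replicate 1 and -4.93 in replicate 2. Means of 28599 members, 22.5% of peaks, 40 genes with none and a median density of 4.14 moved as follows. They became 17213, 20.6%, 184 and 2.39 in the smaller lists, 12518, 19.8%, 487 and 1.26 above the median height, and 103 genes and 3.61 at equal numbers of peaks. At 200 kb they became 18781, 14.8% and 1 gene, at 50 kb 28.7% and 367 genes, over 5 kb from starts 20.2%, and with 1 peak per run 25.1% and 3.48. Leaving out either animal gave 69 to 114 genes with none, 26437 to 30760 members, 22.0% to 23.1%, density differences of -0.795 to -0.185, height differences of -7.40 to -6.70, footprint differences of -4.93 to -3.22, sharing differences of -4.54 to 2.95, first-quintile differences of 0.374 to 0.524, first-intron differences of 0.957 to 1.30 and median densities of 3.96 to 4.32. The tested differences were taken within each animal. No comparison between groups was possible because there is 1 group. The depth of the libraries is unknown and limits which low peaks each list can hold.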
